A study of Komagataella phaffii with 72 samples.

Results

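The 100 genes described here were those whose transcript levels tracked the rhG-CSF transgene most closely among clones of *K. phaffii* (*P. pastoris*) that carried it. Levels were given as log2(TPM + 1), where TPM is a transcript's share of each library's total, scaled to a fixed sum. Clone means over 3 cultures were centred on the mean of their strain, and genes were ranked by Pearson's r with the transgene centred the same way over 12 clones. Of 5120 genes other than the 3 transgenes in the table, 3659 had a mean level of 4 or more in the rhG-CSF clones and were ranked, and the 100 highest became the members. The members were thus chosen by their measured levels in the rhG-CSF clones, and their values among the rhG-CSF clones are given as a description without a test.

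The study compared *K. phaffii* strains as hosts for secreted proteins. Either rhG-CSF or rhGH was carried by GS115, Y-11430, and the GS115 descendants Y-48124 and X-33. Each strain had 3 clones of each product, grown as 3 cultures each, which gave 72 libraries. All vectors were of the pPICZ A type, with the product under the *AOX1* promoter and a marker for selection on phleomycin D1. Every culture was grown for 24 hr in 4% glycerol and then for 24 hr in 1.5% methanol before RNA was taken. GS115 is a histidine auxotroph derived from Y-11430 by mutagenesis. A clone is 1 transformant. The study placed the transgenes at the *AOX1* locus, and its 3 clones per strain spanned low to high copy number. Neither copy number nor site of integration was among the values analysed here.

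*K. phaffii* grows on methanol as its carbon source, and the *AOX1* promoter of alcohol oxidase is nearly silent on glycerol and strong on methanol. It is therefore widely used to drive foreign genes after a shift to methanol. The human products granulocyte-colony stimulating factor (rhG-CSF) and growth hormone (rhGH) are a cytokine and a hormone that pass through the endoplasmic reticulum with the help of a secretion signal. High secretory load is known to burden folding and transport in yeasts.

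The members were listed by GQ67 identifiers. Of 5120 identifiers, 0 occurred in the gene table of the species used here, and of the 20 that the study's own tables list with 8 names, 2 were members and had no name. No roles, coordinates, or sequences are therefore given for the members, and apart from 4 printed identifiers they are called by their rank in r. Among the members, 4 pairs had consecutive identifiers, which covers 8 genes.

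Total counts were between 805388 and 33003281 in the rhG-CSF libraries, with a median of 1516792, and between 386665 and 3457426 in the rhGH libraries, with a median of 1216780.5. The GS115 rhG-CSF culture 14A held the highest total and belonged to the GS115 clone with the least transgene. Members had a median of 96 counts in an rhG-CSF library, and 89 of 100 had at least 10 counts in all 36 of them. By their median absolute difference from the strain means, 10 of 36 rhGH libraries were nearest to another strain. In 8 of these the strains were Y-48124 and X-33, Y-11430 25B was nearest to X-33, and 12A, which carries the label X-33 rhGH, was nearest to Y-11430. For 12A the difference over the 3659 genes was 0.224 for Y-11430 and 0.284 for X-33, whereas culture B had 0.345 for Y-11430 and 0.228 for X-33. It listed 12.84 for the rhGH transgene, against 10.79 and 10.99 in cultures B and C. Counts and slopes from rhGH clones are given with and without 12A, and the levels by group with it. In bulk RNA of a culture, a higher level in every cell and expression by more of the cells cannot be told apart.

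The rhG-CSF transgene differed widely among clones of each strain. Y-11430 clones 13, 12, and 16 had means of 12.67, 13.65, and 16.09, and the transgene took 6.98% of all TPM in clone 16. GS115 clones 14, 12, and 13 had means of 9.85, 11.83, and 13.76. Y-48124 clones 14, 16, and 13 had means of 9.11, 10.95, and 12.83. For X-33 clones 16, 12, and 13 the means were 10.83, 11.69, and 13.49. The span between the highest and the lowest clone was thus 2.66 to 3.91 on the log2 scale. The SD over the 3 cultures of a clone was 0.587 to 1.16 in GS115, 0.685 in Y-48124 clone 14, and 0.0417 to 0.153 in the other clones. In rhGH clones, which lack the rhG-CSF gene, the same transgene was still listed at 5.38 to 6.55.

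**Figure D1:**
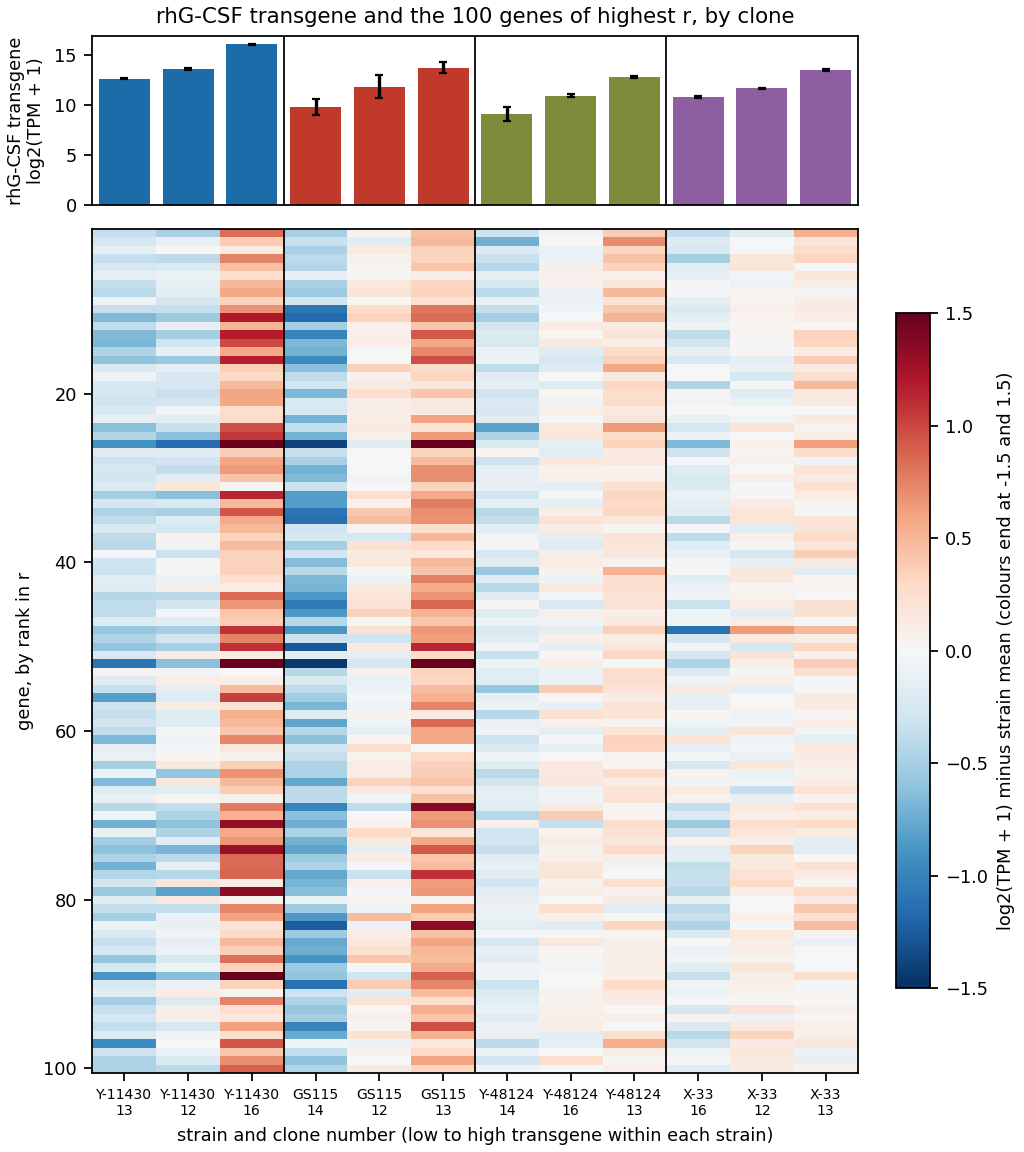
Top, rhG-CSF transgene level by clone as log2(TPM + 1), with bars for the mean and error bars for the SD of 3 cultures. Bottom, each of the 100 members as its level minus the strain mean in the same clones, ordered by r, where Y-11430 clone 16 and GS115 clone 13 show the strongest red and GS115 clone 14 the strongest blue.

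The marker transcript, which the vector carries for selection, was compared with the rhG-CSF transgene as a second readout of the cassette. Over the 12 rhG-CSF clones, centred on strain, Pearson's r was 0.61 (exact two-sided permutation of clones within strains, p = 0.0934) and Spearman's rho was 0.538 (exact p = 0.151). The p-values for the marker were not adjusted for the number of coefficients and settings. The marker was lowest in the Y-11430 clone with the most transgene, at 6.52 in clone 16, against 8.62 in clone 12 and 7.42 in clone 13. Without that clone r was 0.939 (exact permutation, p = 0.00231, the smallest that 432 permutations can give). With the 2 clones farthest from the median left out, r was 0.935 (exact permutation, p = 0.00694, the smallest that 144 permutations can give). Ranking genes by the marker in place of the transgene kept 3 of the 100 members.

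Members had r between 0.768 and 0.926 with a median of 0.812, whereas all genes ranked had a median r of 0.135 and 61.9% above 0. Just inside the threshold, ranks 98, 99, and 100 had r of 0.7694, 0.7690, and 0.7676. Just outside, the next 3 genes had 0.7676, 0.7675, and 0.7674. The slope was 0.0561 to 0.585 log2 units per log2 unit of transgene, with a median of 0.194, against a median of 0.0230 over all genes ranked. A slope above 0.3 was found for 16 members and a slope below 0.1 for 5. Members were not especially abundant. Their mean level was 4.02 to 9.60 with a median of 5.56, against 5.83 for all genes ranked, and 13 members reached 7 or more, against 26.7% of all genes ranked.

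The members moved as a group, as the rule requires. The median pairwise r between members over the 12 centred clone means was 0.801 and the lowest 0.302. The largest shifts were in 3 clones. The median centred level of the members was 0.491 in Y-11430 clone 16 and 0.489 in GS115 clone 13, against −0.541 in GS115 clone 14. In the other 9 clones it lay between −0.343 and 0.188. The median over all genes ranked was −0.218 in GS115 clone 14 and 0.126 in GS115 clone 13, so GS115 clones differed broadly as well, while it was −0.0220 in Y-11430 clone 16.

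Between the clone with the most and the clone with the least transgene, the median difference of the members was 1.07 in GS115 and 0.83 in Y-11430, but 0.37 for Y-48124 clones and 0.25 for X-33 clones. Over all genes ranked these medians were 0.34 in GS115 and 0.05 in Y-11430, and 0.02 for Y-48124 clones and −0.06 for X-33 clones. The transgene itself differed by 3.91, 3.42, 3.73, and 2.66 in the same order of strains, so Y-48124 had a span of transgene like those of GS115 and Y-11430 with a smaller median difference of the members. All 100 members were higher in the highest than in the lowest clone of GS115 (67.5% of genes ranked), 99 in Y-11430 (52.6%), 99 among Y-48124 clones (54.2%), and 89 among X-33 clones (43.5%). These shares follow from the rule and are no test. In all 4 strains 87 members did so, and 7.98% of genes ranked. Only 8 members followed the order of all 3 clones in every strain, which was 0.219% of genes ranked and included no gene outside the members. The full order was most frequent in GS115, where 93 members followed it, against 71 in Y-11430, 60 for Y-48124 clones, and 44 for X-33 clones.

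**Figure D2:**
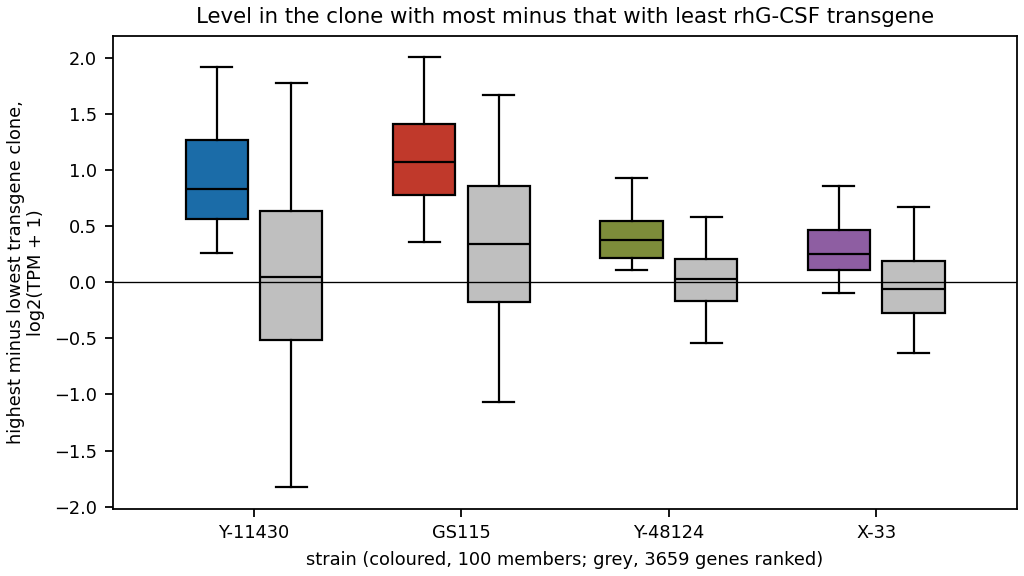
Difference in log2(TPM + 1) between the clone with the most and the clone with the least rhG-CSF transgene of each strain, for the 100 members (coloured) and the 3659 genes ranked (grey). Boxes span the quartiles with the median as a line and whiskers reach the 5th and 95th percentiles, and the members' medians are 0.83, 1.07, 0.37, and 0.25 from left to right.

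The member with the highest r was GQ67_02000. Y-11430 cultures were at 5.80, 5.49, and 5.24 for clone 13, at 5.18, 5.41, and 5.5 for clone 12, and at 6.60, 6.56, and 6.91 for clone 16. GS115 cultures were at 6.61, 6.67, and 7.39 for clone 14, at 7.25, 7.51, and 7.54 for clone 12, and at 7.35, 8.0, and 8.15 for clone 13. All cultures of Y-11430 clone 16 were above the other rhG-CSF cultures of that strain, while the cultures of the GS115 clones overlapped. Y-48124 cultures were at 4.80, 4.08, and 4.29 for clone 14, at 4.48, 4.55, and 4.96 for clone 16, and at 5.0, 5.52, and 4.74 for clone 13. X-33 cultures were at 4.57, 4.12, and 4.82 for clone 16, at 4.49, 4.91, and 4.70 for clone 12, and at 5.14, 5.13, and 6.0 for clone 13. The highest clone of X-33 did not overlap with its other clones, while that of Y-48124 overlapped with clones 14 and 16. The slope of GQ67_02000 was 0.28 and its r 0.926, with 0.933 when Y-11430 clone 16 was left out.

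Ranks 2 to 10 had r of 0.886 to 0.924 and slopes between 0.0825 and 0.309. Rank 2 differed most in Y-48124, by 1.43 between the highest and the lowest clone, and by 0.82 in GS115, 0.64 in Y-11430, and 0.38 among X-33 clones. Rank 10 differed most in GS115, by 1.89, against 1.04 in Y-11430, 0.77 for Y-48124 clones, and 0.34 for X-33 clones. Rank 6 had the smallest slope of the 10 and differed by 0.40 in Y-11430, 0.34 in X-33, and 0.21 in both GS115 and Y-48124. High r thus went with changes of very different size.

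Y-11430 clone 16 held the most transgene of the 12 clones and weighed heavily on which genes were chosen. Without it the members' r was 0.684 to 0.949 with a median of 0.784, against a median of 0.258 over all genes ranked. All 100 members kept an r above 0, but only 32 were among the 100 highest. The remaining clones had also chosen the members, so an r above 0 follows largely from the rule and is no test. Leaving out any other clone kept 55 to 86 members, and the lowest r of a member over all 12 such omissions was 0.683.

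Clones producing rhGH from the same promoter were not used to choose the members and were therefore the first independent test. No member passed the test for a rise with the rhGH transgene. By edgeR's quasi-likelihood test on counts summed by clone, 0 of 100 members rose and 0 fell at an adjusted p under 0.05, where 0.0199% of 5023 genes rose and 0.0199% fell. At an unadjusted p under 0.05, 4 members had a higher and 6 a lower level with more rhGH transgene (5.02% and 5.36% of all genes), and DESeq2 called 1 higher (0.378% of all genes) and 1 lower (0.398%), while limma called 0 and 0 (0.00% of all genes each). A slope above 0 was found for 42 members, against 52.1% of all genes, and the median slope was −0.04 for the members and 0.01 for all genes. The median slope turned positive without X-33 clone 13 (0.0018) and without X-33 clone 14 (0.08). When the X-33 rhGH library labelled 12A was left out, edgeR called 0 members, with 4 higher and 8 lower at an unadjusted p under 0.05 (3.59% and 4.81% of all genes). Without Y-48124 clone 13, edgeR called 2 members higher and 1 lower (0.338% and 0.497% of all genes), and it called 1 lower without Y-48124 clone 12 (0.239%) or without Y-11430 clone 25 (0.0599%).

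As a correlation over the 12 rhGH clones, centred on strain, the members' r with the rhGH transgene had a median of −0.35 and a range of −0.78 to 0.65. Only 15 were above 0, against 28.0% of genes ranked, for which the median was −0.27. Without the X-33 library 12A the members' median was −0.33 and 18 were above 0, against 27.9% of genes ranked. In rhGH transgene, X-33 clone 14 lay farthest from its strain mean, at −1.07. With that clone left out, 66 members had an edgeR slope above 0, against 51.3% of all genes. The median slope was then 0.08 for the members and 0.01 for all genes. With all 12 clones 42 members had an edgeR slope above 0, against 52.1% of all genes. Without X-33 clone 13 the count was 52, against 51.6% of all genes. The direction of the edgeR slopes thus shifted when either of these X-33 clones was left out, and r is not given without them. The rhGH transgene spanned far less than rhG-CSF, by 0.176 between the highest and the lowest clone in Y-11430, 0.708 in GS115, 0.734 for Y-48124 clones, and 1.66 for X-33 clones (1.56 without 12A). The SE of a member's slope in the edgeR fit had a median of 0.146, against the median slope of 0.194 in the rhG-CSF clones. Members' slopes in that fit ran from −0.80 to 0.80, and none passed the adjusted threshold. A slope of the size seen among rhG-CSF clones could thus not be detected in a single member of the rhGH clones, and the count of 0 calls does not show that it was absent.

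The member with the smallest p among those higher with more rhGH transgene was GQ67_02807, rank 62. Its X-33 rhGH cultures were at 5.02, 4.67, and 5.33 for clone 14, which had the least rhGH transgene of that strain, at 5.86, 5.29, and 6.21 for clone 13, and at 6.50, 4.92, and 6.47 for clone 12. The slope was 0.67 (SE 0.174, edgeR adjusted p = 0.195). The members with the smallest p among those lower were GQ67_04521, rank 81, and GQ67_02355, rank 97. For GQ67_04521 the X-33 cultures were at 5.80, 6.43, and 6.14 for clone 14, at 4.64, 4.86, and 3.53 for clone 13, and at 4.96, 4.74, and 4.77 for clone 12. Clone 14 was thus above the other clones without overlap, though the 3.53 of clone 13 rests on 5 counts. The slope was −0.70 (SE 0.144, edgeR adjusted p = 0.151). DESeq2 gave GQ67_04521 an adjusted p of 0.0124 and GQ67_02807 one of 0.0487. For GQ67_02355 the X-33 cultures were at 4.31, 4.79, and 4.58 for clone 14, at 2.89, 3.04, and 3.38 for clone 13, and at 3.85, 3.08, and 3.13 for clone 12. The values of clone 13 rest on 13, 34, and 12 counts. The slope of GQ67_02355 was −0.57 (SE 0.163, edgeR adjusted p = 0.218). Without 12A the edgeR slopes were 0.60 for GQ67_02807 (adjusted p = 0.426), −0.77 for GQ67_04521 (adjusted p = 0.228), and −0.68 for GQ67_02355 (adjusted p = 0.374). Both lower members were thus highest in the X-33 rhGH clone with the least transgene, without overlap, although by rule they ran with the transgene in rhG-CSF clones. The difference between the 2 products in these slopes was not tested, since the rule fixed one of them.

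Cultures of the same rhG-CSF clone offered a second test, on differences that clone means average out. It used the same libraries that chose the members, so it was not a test in new samples. By edgeR with a term per clone, 30 of 100 members were higher in cultures with more transgene and 1 was lower, against 6.73% higher and 2.57% lower of 4978 genes. DESeq2 called 33 higher and 0 lower (8.50% and 2.73% of all genes), and limma 18 higher and 0 lower (4.44% and 1.09%). The slopes of the 30 were 0.17 to 0.99 with a median of 0.34. The median slope was 0.14 for the members and −0.003 for all genes, and 82 of 100 members had a slope above 0, against 49.1% of all genes. The 3 called among the 10 highest ranks were rank 1 (0.33, SE 0.0892, adjusted p = 0.0137), rank 2 (0.34, SE 0.0874, adjusted p = 0.00988), and rank 10 (0.38, SE 0.0657, adjusted p = 0.000143). The largest slope, 0.99, belonged to rank 26, which was singled out after its values were seen. Among the printed members, GQ67_04521 was called as well, with a slope of 0.34 (SE 0.0925, adjusted p = 0.0146), whereas GQ67_02807 had 0.02 (SE 0.0842) and GQ67_02355 had −0.03 (SE 0.0966).

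The transgene differed by more than 0.2 from its clone mean in 8 of 9 GS115 cultures, in 2 cultures of Y-48124 clone 14, and in no other culture. In GS115 clone 13 the cultures deviated from the clone mean by −0.676, 0.299, and 0.377 in transgene and by −0.248, 0.121, and 0.132 in the median of the members. In clone 14 they deviated by −0.676, −0.194, and 0.870 in transgene and by −0.193, −0.138, and 0.308 in the members. In clone 12 the transgene deviated by −1.34, 0.667, and 0.674, and the members by only −0.0586, 0.0587, and 0.0065. The median over all genes ranked deviated by −0.0711, 0.0386, and 0.0316 in clone 13, by −0.0649, −0.0749, and 0.139 in clone 14, and by 0.0998, −0.0048, and −0.0728 in clone 12. Members and genes ranked thus deviated in the same direction in clones 13 and 14, the members by more, and the members changed little in clone 12, where the transgene differed most. In all 3 GS115 clones the transgene and the members' median were below the clone mean in culture A and above it in culture C. With the culture letter as a block, edgeR called 22 members higher and 0 lower (4.64% and 1.57% of all genes), and rank 1 was not among them (adjusted p = 0.127). Without GS115, edgeR called 0 members and 0 of all genes. Without GS115 clone 12 it called 16 members higher and 0 lower (2.82% and 3.04% of all genes), and without GS115 clone 14, which holds the culture of the highest depth, 22 higher and 2 lower (5.53% and 1.39%). Over the 36 cultures the median r within clones was 0.28 for the members and 0.0095 for all genes ranked, and 82 members were above 0, against 51.0%. By strain the members' median r was 0.587 in GS115, 0.183 for Y-48124, −0.0777 for Y-11430, and −0.0667 for X-33.

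**Figure D3:**
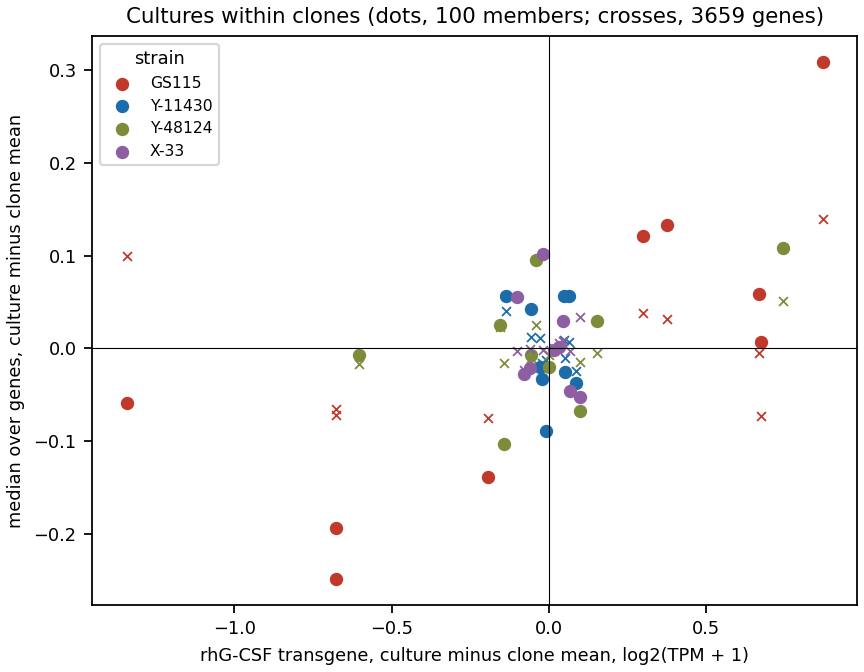
Each rhG-CSF culture as its transgene level minus the clone mean (horizontal, log2 units) and the median deviation of the 100 members (dots) or of the 3659 genes ranked (crosses) from the clone mean (vertical, log2 units). The GS115 cultures spread from −1.34 to 0.870 in transgene, while the Y-11430 and X-33 cultures gather near 0.

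Differences between strains were removed by the centring before r was computed, but the minimum mean of 4 was set on uncentred levels, so strain entered the choice there. Most members were higher in GS115 than in its descendants. Their median level was 6.48 in GS115 rhG-CSF clones, against 5.22 in Y-48124 and 5.33 in X-33, while Y-11430 had 5.61. For all genes ranked the medians were 6.06 in GS115, against 5.72 in Y-48124 and 5.81 in X-33. By edgeR on clone sums, 67 of 100 members were higher in GS115 than in the mean of Y-48124 and X-33 and 9 were lower, where 28.9% of 5028 genes were higher and 23.4% lower. DESeq2 called 67 and 10 (28.8% and 26.0% of all genes), and limma 73 and 5 (35.1% and 17.1%). The median log2 difference was 1.05 for the members and 0.08 for all genes, and 83 members were above 0, against 53.9% of all genes. For 11 members the mean over the other 3 strains was below 4, so that they met the minimum only through GS115, and all 11 were among those called higher. Of the other 89 members, 56 were higher in GS115 and 9 were lower, against 28.1% higher and 27.3% lower of the 3547 genes ranked that met the minimum without GS115. Their median difference was 0.885, against 0.0293 for those genes. The differences of the members called lower were between −2.04 and −0.44.

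Among the 10 highest ranks, 7 were higher in GS115 and 1 was lower. Ranks 4, 5, 9, and 10 met the minimum only through GS115, which leaves ranks 1, 7, and 8 among the higher ones. GQ67_02000 averaged 7.38 ± 0.475 in GS115, against 4.71 ± 0.350 in Y-48124 and 4.88 ± 0.484 in X-33 (SD, n = 3 clones each), and differed by 2.34 (SE 0.325, edgeR adjusted p = 0.000137). Its GS115 cultures did not overlap with those of Y-48124 or X-33. Rank 8 averaged 6.62 ± 0.475 in GS115, against 5.16 ± 0.450 in Y-48124 and 5.09 ± 0.0314 in X-33 (SD, n = 3 clones each), with a difference of 1.28 (SE 0.234, edgeR adjusted p = 0.000856). Rank 3 went the other way, with 5.36 ± 0.429 in GS115, against 6.32 ± 0.281 in Y-48124 and 6.39 ± 0.258 in X-33 (SD, n = 3 clones each), and a difference of −1.22 (SE 0.194, edgeR adjusted p = 0.000346). GQ67_02807 was also lower in GS115, by −1.36 (SE 0.181, edgeR adjusted p = 0.000103). GQ67_04521 had a difference of −0.05 (SE 0.298, edgeR adjusted p = 0.902) and GQ67_02355 one of −0.68 (SE 0.334, edgeR adjusted p = 0.102).

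The same strain comparison in rhGH clones, added after the data were seen, uses no library that chose the members, although strain still entered through the minimum mean. There 73 members were higher in GS115 than in the mean of Y-48124 and X-33 and 6 were lower, where 35.7% of 5001 genes were higher and 31.9% lower. The median difference was 0.89 for the members and 0.05 for all genes, and 86 members were above 0, against 52.2% of all genes. Of the 89 members that met the minimum without GS115, 63 were higher and 6 lower, against 33.3% and 38.6% of the 3547 genes ranked. The counts were again 73 and 6 without the X-33 rhGH library labelled 12A. In both products 63 members were higher in GS115, against 26.5% of 4997 genes, and 6 members were lower in both, against 21.3%. The count of 63 is partly set by the minimum mean. It was taken over all 100 members, including the 11 that met the minimum only through GS115. Of those, 11 were called higher in rhG-CSF clones and 10 in rhGH clones. GQ67_02000 averaged 7.63 ± 0.184 in GS115 rhGH clones, against 4.61 ± 0.146 in Y-48124 and 4.55 ± 0.151 in X-33 (SD, n = 3 clones each), with a difference of 2.61 (SE 0.163, edgeR adjusted p = 2.34e-09), and of 2.69 without 12A.

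Summed over the 100 members, transcripts took 1.15% to 2.76% of all TPM in GS115 rhG-CSF clones, against 0.464% to 0.641% in Y-48124 and 0.50% to 0.618% in X-33. In Y-11430 rhG-CSF clones they took 0.554% to 1.16%. These sums include the 11 members that met the minimum mean only through GS115. Among GS115 rhG-CSF clones the sum was lowest in clone 14, at 11530 TPM, against 19748 in clone 12 and 27620 in clone 13. In GS115 rhGH clones the sum was 17593 to 21926 TPM, inside the range of the GS115 rhG-CSF clones and above GS115 rhG-CSF clone 14. GS115 clone 14 had both the least transgene and the lowest median of the members within its strain, at 5.79, which follows largely from the rule. The clones of Y-48124 and X-33 remained below it, at up to 5.44 and 5.49, while Y-11430 rhG-CSF clone 16 was above it, at 6.18.

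**Figure D4:**
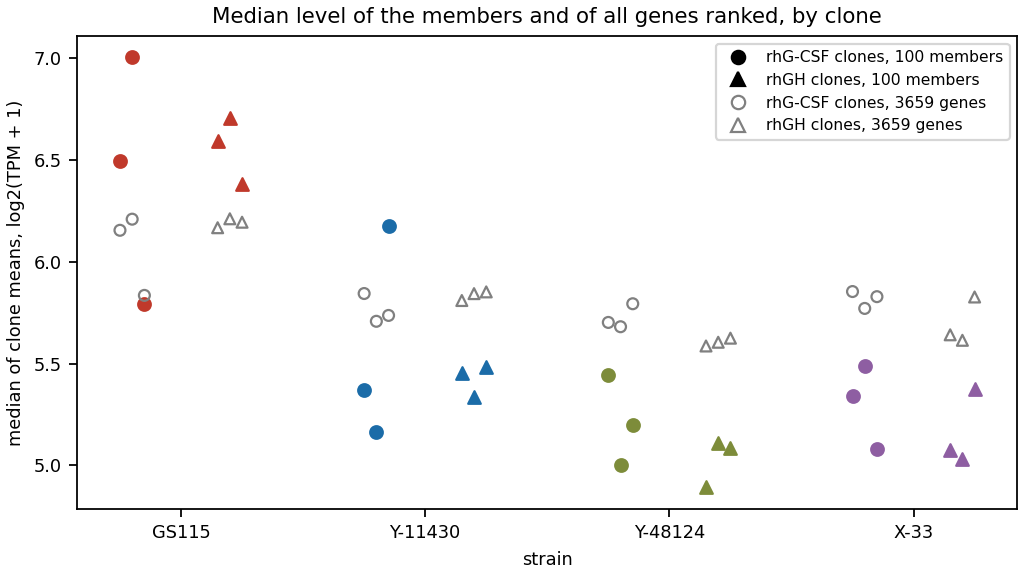
Median log2(TPM + 1) of the 100 members (filled) and of the 3659 genes ranked (open) in each clone, with rhG-CSF clones as circles and rhGH clones as triangles. The members' medians are 5.79 to 7.00 in GS115 rhG-CSF clones and 6.38 to 6.71 in GS115 rhGH clones, and at most 5.49 in Y-48124 and X-33. In Y-11430 they are 5.16 to 6.18 in rhG-CSF clones and 5.34 to 5.48 in rhGH clones.

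Y-11430 was compared with Y-48124 and X-33 in the same way. In rhG-CSF clones edgeR called 0 members in either direction, where 0.179% of 5028 genes were higher and 0.0597% lower. At an unadjusted p under 0.05, 17 members were higher and 0 lower (8.33% and 3.06% of all genes), and DESeq2 called 2 higher and 0 lower (0.815% and 0.259% of all genes), while limma called 0 and 0 (0.139% and 0.0199%). Of the 100 estimates 85 were above 0, against 53.7% of all genes, with a median of 0.30 for the members and 0.03 for all genes. Without Y-11430 clone 16 the members' median was −0.04, and 46 estimates were above 0, against 51.4% of all genes. Without Y-11430 clone 12 edgeR called 2 members higher (0.752% of all genes). The sum of the members was 11638 TPM in clone 16, against 5999 in clone 12 and 5540 in clone 13. The median difference from Y-48124 and X-33 thus rested on that 1 clone. The rule favoured genes that were high in it, so this difference is partly set by the choice of members. In rhGH clones, a comparison added after the data were seen, 15 members were higher in Y-11430 and 0 lower, where 5.28% of 5001 genes were higher and 5.34% lower. Of the members 67 had an estimate above 0, against 49.5% of all genes, the median was 0.16 for the members and −0.005 for all genes, and 17 members were higher without the X-33 rhGH library labelled 12A (7.08% of all genes). GQ67_02000 was among them, at 5.70 ± 0.490 in Y-11430 rhGH clones, against 4.61 ± 0.146 in Y-48124 and 4.55 ± 0.151 in X-33 (SD, n = 3 clones each), with a difference of 1.10 (SE 0.174, edgeR adjusted p = 0.00142), and of 1.18 without 12A.

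Members were called different by product about as often as all genes were. With strain as a term over 24 clones, edgeR called 3 members higher in rhG-CSF than in rhGH clones and 5 lower, where 3.7% of 5027 genes were higher and 3.16% lower. DESeq2 called 7 higher and 6 lower (6.17% and 5.25% of all genes), and limma 1 and 2 (2.41% and 2.05%). The median difference was 0.07 for the members and 0.03 for all genes, and 61 members were above 0, against 55.0% of all genes. It was −0.01 without Y-11430 rhG-CSF clone 16. The 3 higher members differed by 0.70 to 0.95 and the 5 lower ones by −0.65 to −0.23. Rank 3 and GQ67_02807 were among the lower ones. Rank 3 averaged 6.32 ± 0.281 in Y-48124 rhG-CSF clones, against 6.78 ± 0.423 in Y-48124 rhGH clones (SD, n = 3 clones each), and differed by −0.65 over all strains (SE 0.134, edgeR adjusted p = 0.00917). GQ67_02807 averaged 5.0 ± 0.154 in Y-11430 rhG-CSF clones, against 6.0 ± 0.457 in Y-11430 rhGH clones (SD, n = 3 clones each), and differed by −0.62 over all strains (SE 0.141, edgeR adjusted p = 0.0139). GQ67_02000 differed by 0.13 (SE 0.163, edgeR adjusted p = 0.673).

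These counts by product shifted with single clones, and so did the shares of all genes called. They were 4 higher and 5 lower without the X-33 rhGH library labelled 12A (3.68% and 3.66% of all genes). Leaving out GS115 rhG-CSF clone 14 gave 12 members higher (7.24% of all genes), and 5 were higher without GS115 rhG-CSF clone 12, without Y-11430 rhG-CSF clone 13, or without X-33 rhGH clone 14 (3.51% to 4.26%). A single member was higher without Y-48124 rhGH clone 11, any 1 of the 3 Y-11430 rhGH clones, X-33 rhG-CSF clone 12, or X-33 rhGH clones 12 or 13 (1.79% to 2.72%). Without GS115 rhG-CSF clone 13, 9 were lower (5.03% of all genes). Only 3 were lower without any 1 of the 3 Y-48124 rhGH clones, GS115 rhGH clones 13 or 14, or Y-11430 rhGH clone 25 (2.14% to 3.44%). Only 2 were lower without Y-48124 rhG-CSF clones 14 or 16, Y-11430 rhG-CSF clones 12 or 13, Y-11430 rhGH clones 8 or 22, X-33 rhG-CSF clones 12 or 16, or any 1 of the 3 X-33 rhGH clones (1.59% to 3.42%). Without GS115 altogether, a setting added after the data were seen, 7 were higher and 7 lower, against 8.02% and 7.64% of all genes.

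**Figure D5:**
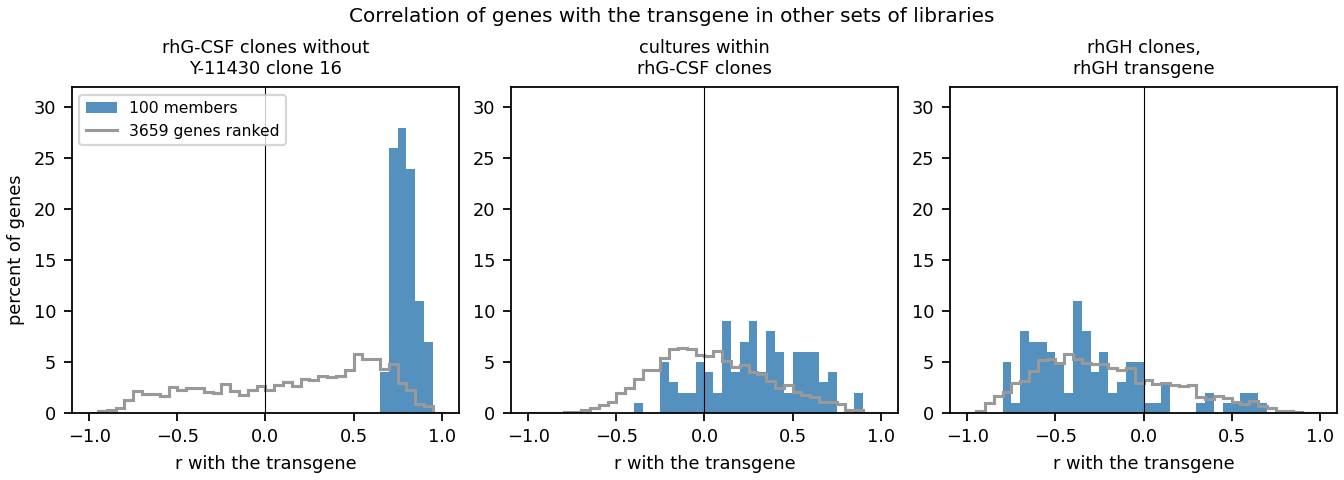
Percent of the 100 members (blue) and of the 3659 genes ranked (grey line) by their r with the transgene without Y-11430 clone 16, among cultures within rhG-CSF clones, and among rhGH clones with the rhGH transgene. The members' medians are 0.784, 0.28, and −0.35 from left to right, and the first panel shares 11 clones with the choice of members.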

How the data were processed

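RNA of 72 cultures had been sequenced as 3′ DGE libraries, and the authors quantified them with Salmon 0.9.1 on 1 transcript per gene, extended at the 3′ end, plus the transgenes. The submitters' processing notes also name bedtools 2.26.0. In the deposited table of counts, each gene has an unnormalized whole number per library. The deposited log2 values are log2(TPM + 1), computed by the authors with a pseudocount of 1. Whether molecular identifiers were merged is not given in the sources used here. Groups came from the sample labels, and columns headed WT were matched to Y-11430 by its clone numbers 8, 22, and 25, which no other strain has. No column was left unused.

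The members and lists were chosen with earlier results of these data known. Members were ranked with Python 3.11.15 and pandas 2.3.3. Counts were tested with edgeR 4.0.16 in R 4.3.3 (quasi-likelihood, TMM, filterByExpr) with Benjamini-Hochberg adjustment over all genes tested other than transgenes, with 0.05 as the limit of adjusted p for a call. DESeq2 1.42.0, which the study's methods name, and limma 3.58.1 on log2(TPM + 1) served as alternatives. Cultures of a clone were summed, since clones are the independent transformants. In GS115 rhG-CSF clone 14, culture 14A gave 33003281 of the 43770544 summed counts, so that culture dominates the clone in the summed fits. Without a label tying cultures to separate inoculations, p-values between cultures measure only the spread between these samples. The chi-square per degree of freedom between cultures of a clone was 1.98 to 82.8 over 72 pairs. Every pair thus differed by more than the sampling noise of independent counts. Whether the counts are independent is not known, since merging of molecular identifiers is not given. The fits were tested on simulated data. Printed identifiers were the member with the highest r, the member with the smallest p among those rising in rhGH clones, and the 2 with the smallest p among those falling there.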

Additional observations from a re-analysis of the deposited data

Results flagged for a closer look

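Among 56 sets of 9 cultures of the same strain and product, checked for a single culture far from the other 8, 4 were marked, where chance marks about 1 in 20. The total of the GS115 rhG-CSF culture 14A was 33003281 counts, against 1423848 to 5996828 in the other GS115 rhG-CSF cultures. GQ67_04521 was at 4.92 in the Y-48124 rhG-CSF culture 13A, against 5.4 to 5.79 in the other 8 cultures of that strain and product. GQ67_02355 was at 3.35 in the GS115 rhGH culture 12C, against 3.73 to 4.06 in the others, and at 1.55 in the Y-48124 rhGH culture 11B, against 2.98 to 4.04 in the others. The low value of 11B rests on 4 counts.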

How the results depend on the processing

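Of the 100 members, 82 remained with a minimum mean of 3, 71 with a minimum of 5, 75 with no minimum, 76 with Spearman's rho, 75 with log2(CPM + 1), and 3 with the marker as driver. Leaving out each clone kept 32 to 86. In rhGH clones DESeq2 called 1 member higher and 1 lower and cultures as replicates 1 higher (0.284% of all genes), with 0 to 2 higher and 0 to 1 lower on leaving out each clone. Within rhG-CSF clones limma called 18 higher and 0 lower, DESeq2 33 and 0, and edgeR without GS115 0 and 0, with 16 to 38 higher and 0 to 2 lower on leaving out each clone. By product DESeq2 called 7 higher, limma 1 higher and 2 lower, cultures as replicates 22 and 9 (16.6% and 13.1% of all genes), and edgeR without GS115 7 higher (8.02%), with 1 to 12 higher and 2 to 9 lower on leaving out each clone. For Y-11430 in rhG-CSF clones, DESeq2 called 2 higher, cultures as replicates 29 (12.9% of all genes), and the same without Y-11430 clone 16, added after the data were seen, 2 (1.31%), with 0 to 2 on leaving out each clone. For GS115 limma called 73 higher and 5 lower, with 59 to 70 higher and 6 to 10 lower on leaving out each clone. The r of marker and transgene was 0.61, 0.935 with the 2 farthest clones left out, and 0.939 without Y-11430 clone 16. Within clones and without GS115, the slope of GQ67_04521 was −0.0812. The causes were not tested.

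Over all clones the median r of deviations was 0.0037 for the same culture letter and −0.0008 for different letters. Among GS115 rhG-CSF clones it was 0.163 for the same letter and −0.160 for different letters, with 7 of 9 same-letter pairs above 0.1 and the lowest at −0.185. The letters thus did not pair samples throughout, though they did in part within GS115. With the letter as a replicate block, 22 members were called higher and 0 lower within rhG-CSF clones (4.64% and 1.57% of all genes). The other fits with the letter took cultures in place of clones as replicates. They called 1 member higher in rhGH clones (0.385% of all genes) and 27 higher for Y-11430 (12.1%). By product they called 21 higher and 9 lower (16.1% and 13.1%), and for GS115 75 higher and 11 lower (39.4% and 32.7%). Cultures as replicates without the letter called 1 higher in rhGH clones (0.284%) and 29 higher for Y-11430 (12.9%). They called 22 higher and 9 lower by product (16.6% and 13.1%), and 74 higher and 11 lower for GS115 (39.6% and 33.4%).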
